A study of Homo sapiens with 4 samples.

Results

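The genes described here encode the proteins of the cytosolic ribosome. They were chosen by symbol alone, as RPL or RPS followed by a number with at most a short suffix, together with RPSA, RPLP0, RPLP1, RPLP2 and FAU, and S6 kinases and pseudogenes were left out. The rule took 83 of the 16504 gene symbols in the table, 50 of the large subunit and 33 of the small subunit. FAU, which encodes the small subunit protein eS30 behind a ubiquitin-like domain, was counted with the small subunit. RPL3L, RPL10L, RPS4Y1 and RPS4Y2 were not analysed here.

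A ribosome needs its proteins in near-equal numbers, and cells make most of their messenger RNAs at very high levels. These messages usually begin with a C followed by an unbroken stretch of pyrimidines, the 5′ terminal oligopyrimidine (TOP) tract, through which mTOR signalling, LARP1 and the 4E-BP proteins control their translation. RNA-seq reads the amount of message and not its translation. Ribosomal protein genes are known in blood for Diamond-Blackfan anemia, in which loss of one copy of such a gene impairs red cell formation.

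RNA-seq was performed on 4 libraries of cells labelled NB4, a human acute promyelocytic leukemia line. In 2 libraries CEBPG was present (labelled NC, called control here) and in 2 it was knocked down (labelled CEBPG3). Per the methods of the study, the comparison was with shRNA control cells, hairpins were carried by a pLKO.1-puro lentivirus and stable cells were selected with puromycin. The knockdown label was read as a single CEBPG hairpin, so an effect of CEBPG and an effect of that hairpin alone cannot be told apart. The labels do not say whether libraries 1 and 2 of a group came from separate cultures, so p-values measure only the spread between these libraries.

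Values are FPKM, fragment numbers scaled to transcript length and to the mapped fragments of a library, and they summed to between 346170 and 367105 per library. Read depth was unknown. CEBPG was at 17.1 and 18.1 FPKM in control and at 6.91 and 7.96 FPKM in knockdown, 42.2% of the control mean (log2 fold change -1.14, limma adjusted p = 0.000836). The promyelocytic label was checked on markers. Of 9 promyelocytic and myeloid genes, 5 had a mean under 1 FPKM, among them the granule genes AZU1 (0.370 to 0.570 FPKM) and PRTN3 (0.0897 to 0.188 FPKM), and CST7 was listed at 0 in control 2. All 13 erythroid genes were above 1 FPKM. The erythroid markers summed to 8490 and 8024 FPKM in control and 9489 and 8926 FPKM in knockdown, and the promyelocytic ones to 46.5 and 47.1 FPKM in control and 48.9 FPKM in both knockdown libraries. Others of the list were measured, LYZ at 20.1 and 18.1 FPKM in control, and over the 4 libraries SPI1 at 15.2 to 17.2 FPKM and CD33 at 4.31 to 9.77 FPKM. The erythroid genes were thus far above the promyelocytic ones, HBG2 alone at 2890 to 3766 FPKM, which goes against the label, and the identity of the cells rests on that label alone. The part of the erythroid sums, higher in knockdown, in the results below was not tested.

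Ribosomal protein genes were among the most abundant in every library. Of the 83 genes, 55 ranked among the 100 most abundant genes of the table and 12 among the first 20. Their mean level over the 4 libraries had a median of 691 FPKM, with a middle range of 328 to 1071 FPKM, and 71 exceeded 100 FPKM. FPKM is scaled to transcript length, but reads that a gene shares with its pseudogenes can still alter its level relative to other genes.

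The highest level belonged to RPL8, at 2237 and 2005 FPKM in control and 2334 and 2194 FPKM in knockdown. RPS2, a small subunit protein near the entry of the messenger RNA channel, was next at 2258 and 2049 FPKM in control and 2320 and 2129 FPKM in knockdown. The ranges of both genes overlapped, so their order was not distinguished. RPLP0, the base of the stalk that recruits elongation factors, had a control mean of 1886 ± 149 FPKM (SD, n = 2), and RPL13A and RPL19 had control means of 1974 ± 159 and 1904 ± 83.9 FPKM (SD, n = 2). These last 3 also lay within each other's spread in control.

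A few genes lay far below the rest. RPS18 was at 1.13 and 1.52 FPKM in control and 1.46 and 1.44 FPKM in knockdown, the lowest of all 83. RPS18 has 6 annotated pseudogenes, against a median of 12 over the 83 genes, and the part of shared reads in its low value was not tested. Also at the low end were the duplicate copies RPL22L1, RPS27L and RPL39L, with means of 11.1 to 30.4 FPKM.

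**Figure D1:**
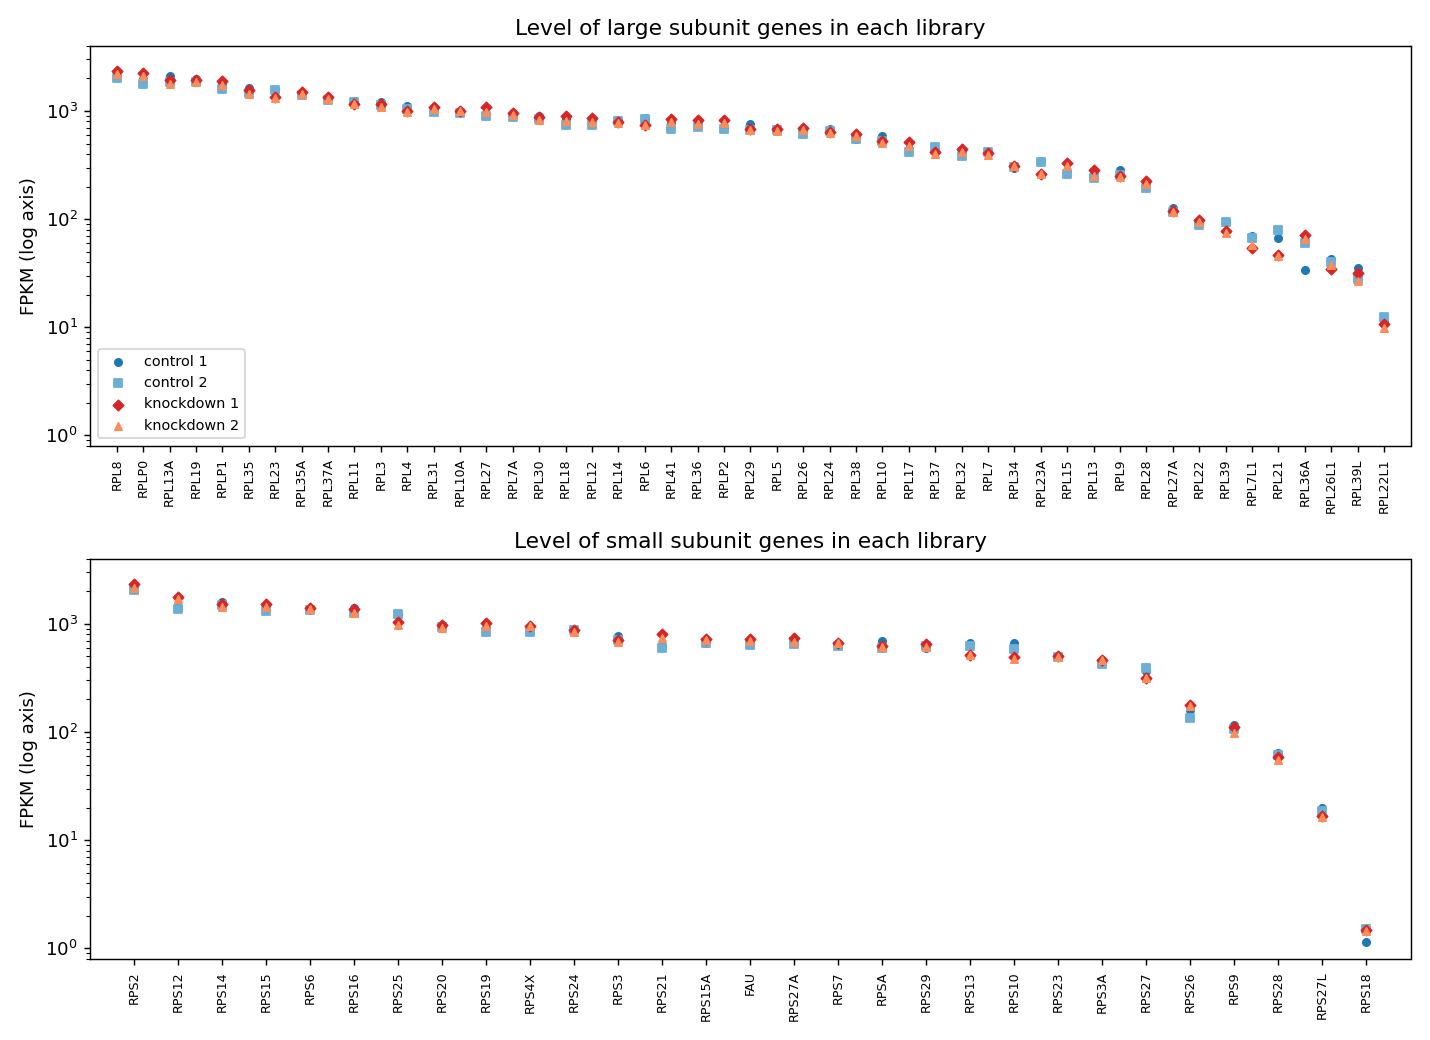
FPKM on a log axis (y) of 78 of the 83 ribosomal protein genes (x), ordered by mean level, with 1 point per library and the large and small subunit in separate panels. Most genes lie above 100 FPKM with the 4 libraries close together, and RPS18 lies far below the other small subunit genes drawn.

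Summed, the 83 genes held 17.8% and 17.6% of all FPKM in control and 17.9% and 17.5% in knockdown. The knockdown values lay on both sides of the control values, and the means of the groups differed by -0.034 percentage points with a pooled SD of 0.21. The summed large subunit was 1.44 and 1.43 times the summed small subunit in control and 1.42 times in both knockdown libraries. This ratio was lower in knockdown by 0.011, with a pooled SD of 0.0070, and its groups did not overlap. Neither value was tested, and the smallest two-sided p an exact permutation test allows here is 0.333.

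Library 1 was above library 2 for most of these genes in both groups. Of 83 genes, 68 were higher in control 1 than in control 2 and 78 were higher in knockdown 1 than in knockdown 2, with median differences of 5.90% and 4.41%. Over all tested genes 67.1% and 48.9% were higher in library 1, with medians of 4.08% and -0.23%, and the library sums differed by 5.96% and 2.89%. These offsets within a group are of the size of many differences between the groups.

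To address which ribosomal protein messages changed with CEBPG, the knockdown and control groups were compared on log2(FPKM + 1) in limma across the 10968 genes that reached 1 FPKM on average, and all 83 genes were among them. Of the 83, 12 had an adjusted p under 0.05 (14.5%), where 20.9% of all tested genes did. Of these, 3 were higher, where the background was 10.9% of tested genes, and 9 were lower, where it was 9.99%. The order of these shares depended on the processing, since 31.3% of the ribosomal protein genes and 24.5% of all genes were called when the other genes were scaled to one sum, and 36.1% and 31.6% with length and GC trends removed. At an unadjusted p under 0.05 there were 26 (31.3%, against 37.0% of tested genes). Their median log2 fold change was 0.019, beside 0.015 for all tested genes.

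Most differences were small. In absolute size the median log2 fold change was 0.10 over ribosomal protein genes, 0.15 over all tested genes and 0.11 over the 579 tested genes above 100 FPKM. A change under 0.2 was found in 63 of the 83 genes (75.9%), against 71.7% of the tested genes above 100 FPKM and 63.1% of all tested genes. The 95% interval of 77 genes lay within 0.5 of 0 in both directions (92.8%, against 76.7% of tested genes). The median half-width of the interval was 0.16. Control and knockdown did not overlap in 46 genes (55.4%, against 64.8% of tested genes), 24 with knockdown above and 22 below. All 12 called genes were among the 46, so the separation described for them below adds nothing to their call.

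**Figure D2:**
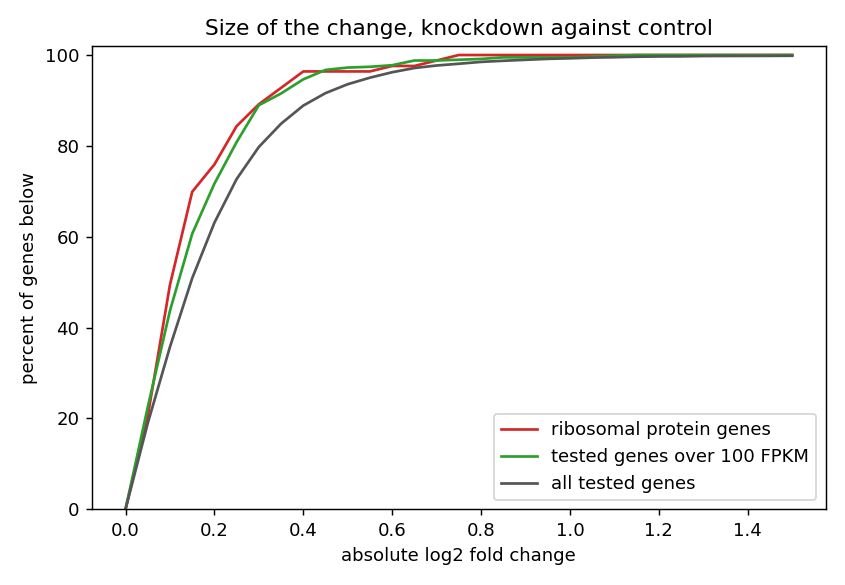
Percent of genes (y) whose absolute log2 fold change between knockdown and control lies below the value on the x axis, for ribosomal protein genes, tested genes above 100 FPKM and all tested genes. The curve of ribosomal protein genes rises near that of genes above 100 FPKM, which include 71 of them, and ahead of that of all genes, with medians of 0.10, 0.11 and 0.15.

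By subunit, 6 of 50 large subunit genes were called (12%), 1 higher and 5 lower, and 6 of 33 small subunit genes (18.2%), 2 higher and 4 lower, against 20.9% of tested genes. The medians were -0.018 and 0.039 on the log2 scale. The difference between subunits was not tested.

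**Figure D3:**
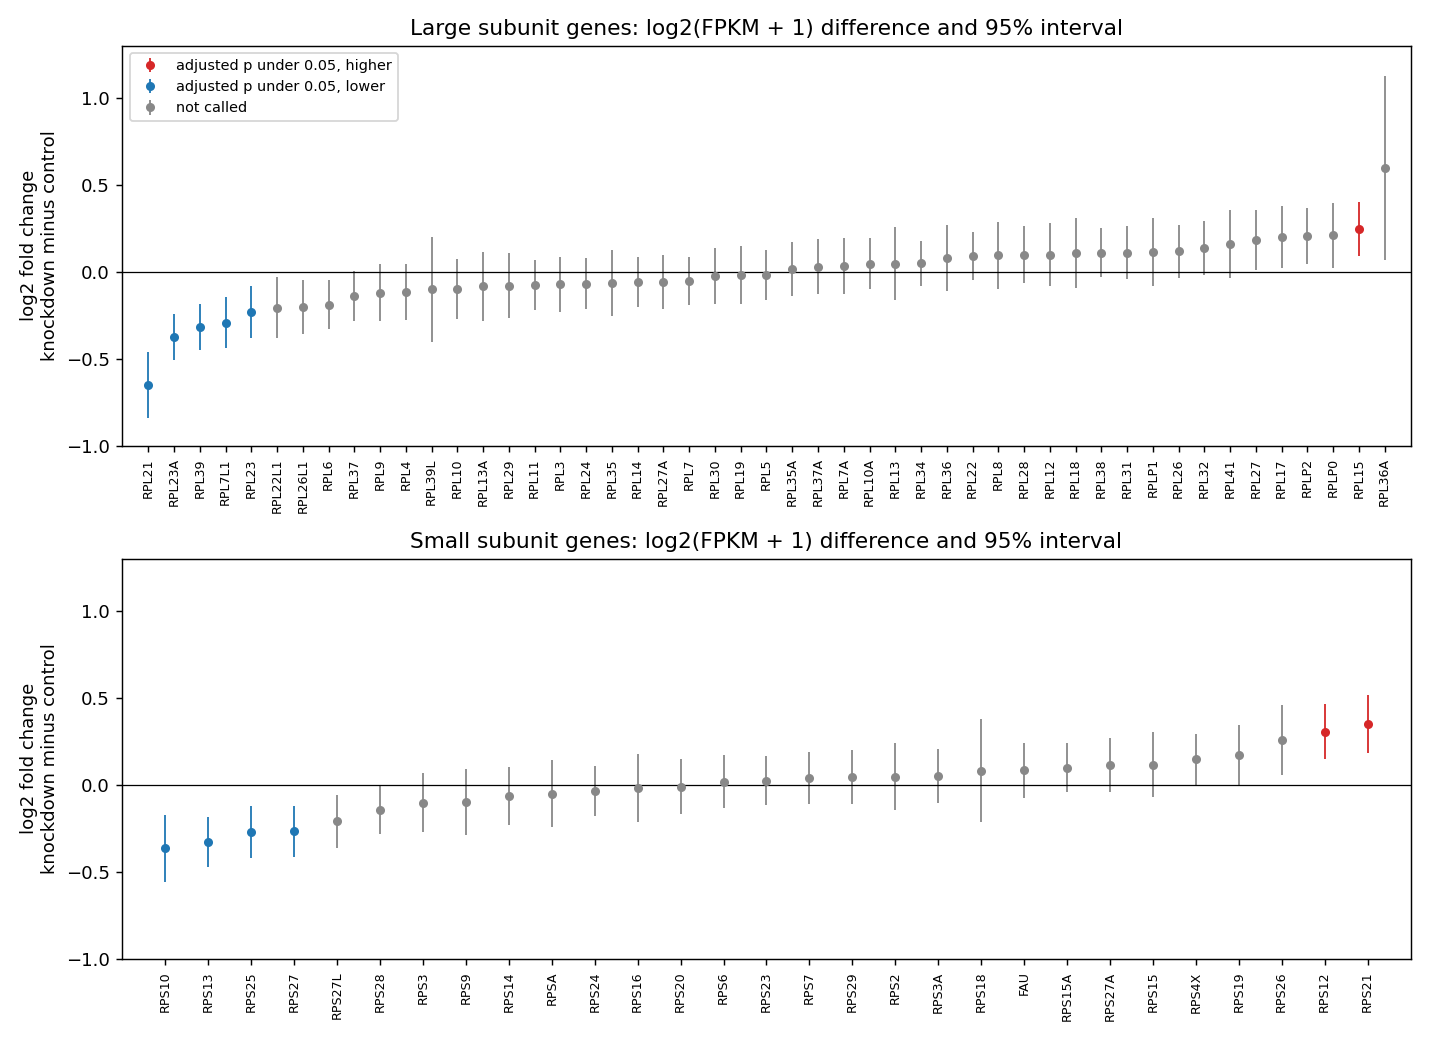
Log2 fold change of knockdown against control on the log2(FPKM + 1) scale (y) with its 95% interval from limma, for large subunit (top) and small subunit (bottom) genes, ordered by value, 78 of the 83 in all. The 9 genes called lower and the 3 called higher are coloured, and the widest interval drawn belongs to RPL36A, which was not called.

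Among large subunit genes, RPL21 fell most. It lies on chromosome 13 (27251362 to 27256691, GRCh38) and was at 67.5 and 78.4 FPKM in control and 46.5 and 45.3 FPKM in knockdown. Both knockdown libraries were below both controls, at 63.0% of the control mean. RPL21 fell by 0.65 on the log2 scale (standard error 0.080, limma adjusted p = 0.0037). In each of the 2 fits that left out a knockdown library, RPL21 was the one ribosomal protein gene still called (log2 fold change -0.67 and -0.63, limma adjusted p = 0.0221 and 0.0274) and the other 11 calls were lost. In these fits the lone knockdown library was assumed to vary like the controls, which alone gave the spread, so they do not set RPL21 apart. Those 11 kept their sign, with values of -0.33 in both fits for RPS13 and of 0.29 and 0.41 for RPS21, and over all genes 7.52% and 7.64% were called.

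RPL23A, a protein at the exit of the peptide tunnel that contacts the signal recognition particle, was at 347 and 338 FPKM in control and 263 and 264 FPKM in knockdown. The fall was even between the knockdown libraries (log2 fold change -0.38, standard error 0.056, limma adjusted p = 0.0063). RPL39, a small protein that lines the tunnel, was at 94.5 and 94.7 FPKM in control and 77.4 and 74.4 FPKM in knockdown, 80.2% of control (-0.31, limma adjusted p = 0.0117). The controls of RPL39 differed by less than 1 FPKM, and the groups were well apart.

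RPL23, the most abundant of the genes called lower, was at 1580 and 1570 FPKM in control and 1359 and 1323 FPKM in knockdown, 85.1% of control (log2 fold change -0.23, limma adjusted p = 0.0419). It was called in 7 of 14 alternatives, and not without either control or, like RPL15 and RPS27, without a trend. RPL7L1, a relative of RPL7 that acts in assembly of the large subunit, was at 69.4 and 66.7 FPKM in control and 53.5 and 57.2 FPKM in knockdown (-0.29, limma adjusted p = 0.0198). In both genes each knockdown library was below each control.

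Among small subunit genes, RPS10 fell from 669 and 583 FPKM to 497 and 473 FPKM, 77.5% of control (log2 fold change -0.36, limma adjusted p = 0.0232). RPS10 is ubiquitinated when ribosomes collide on a message. Its controls were the most uneven of the 4 small subunit genes that fell, and without control 1 its value was -0.26. The most abundant transcript of RPS10 had a value of -0.15. RPS13 was at 661 and 629 FPKM in control and at 514 and 511 FPKM in knockdown, 79.5% of control (-0.33, limma adjusted p = 0.0129). RPS25, which many viral internal ribosome entry sites need, was at 1202 and 1230 FPKM in control and 1031 and 987 FPKM in knockdown (-0.27, limma adjusted p = 0.0277). RPS27, a zinc finger protein, was at 368 and 395 FPKM in control and at 317 and 316 FPKM in knockdown (-0.27, limma adjusted p = 0.0265). Knockdown lay below control without overlap in all 4 genes, and RPS25 and RPS27 were at 83.0% of control.

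The genes that rose were RPS21, RPS12 and RPL15. RPS21 was at 622 and 594 FPKM in control and 811 and 741 FPKM in knockdown, 128% of control (log2 fold change 0.35, standard error 0.070, limma adjusted p = 0.0168). RPS12, a protein of the beak of the small subunit, was at 1444 and 1370 FPKM in control and 1768 and 1706 FPKM in knockdown (0.30, limma adjusted p = 0.0226). RPL15 was at 278 and 260 FPKM in control and 328 and 310 FPKM in knockdown (0.25, limma adjusted p = 0.0392). Each knockdown library exceeded each control in these 3 genes, and for RPS21 the knockdown libraries were the less even pair. Without control 2, RPS12 and RPL15 were not called (0.27 and 0.20), nor were RPS25 and RPS27 (-0.25 and -0.22).

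**Figure D4:**
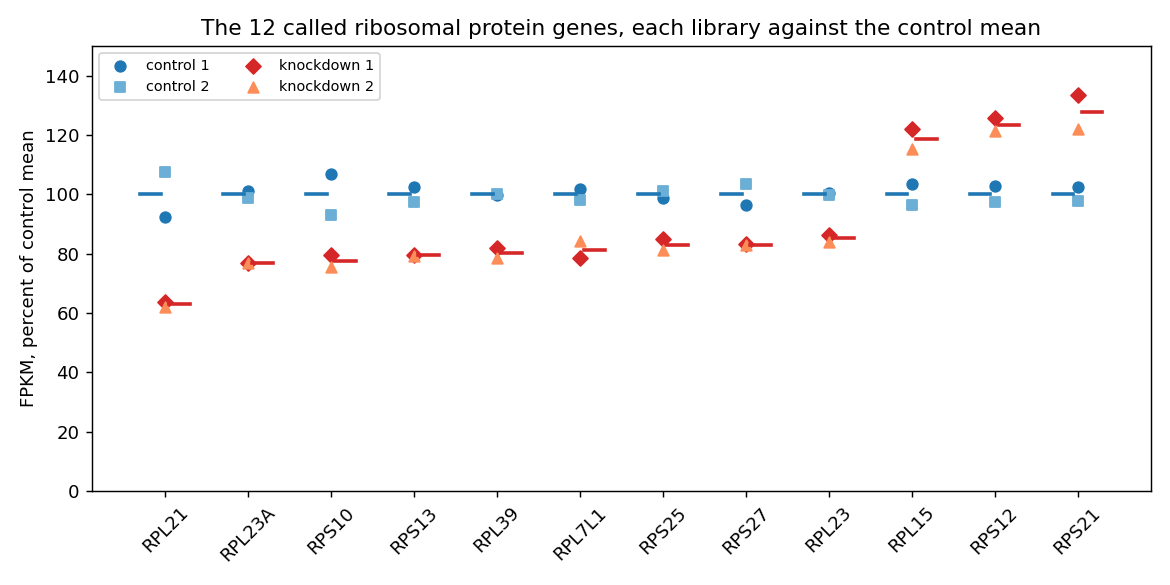
FPKM of each library as percent of the control mean (y) for the 12 ribosomal protein genes with an adjusted p under 0.05 (x), with a short line at the mean of each group. The 9 genes on the left sit between 62.1 and 86.3% in knockdown, and RPL15, RPS12 and RPS21 sit above 115%.

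A high fold change did not always bring a call. RPL36A, a protein near the exit site of transfer RNA, was at 34.1 and 59.5 FPKM in control and 71.8 and 65.8 FPKM in knockdown (log2 fold change 0.60, limma adjusted p = 0.101). Control 1 stood apart for RPL36A, and without it the value was 0.21, whereas without control 2 it was 0.99 and the gene was called.

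Groups with a shared role were read next. The 3 stalk proteins, which recruit the GTPases of translation, had positive values, but RPLP0 was at -0.44 when its most abundant transcript was used. None was called, whereas RPLP0 and RPLP2 were called with the other genes scaled to one sum and with length and GC trends removed, and RPLP2 also with median-ratio scaling. RPLP0 was at 1991 and 1781 FPKM in control and 2233 and 2127 FPKM in knockdown (log2 fold change 0.21, limma adjusted p = 0.104). RPLP2 was at 715 and 680 FPKM in control and 834 and 775 FPKM in knockdown (0.20, limma adjusted p = 0.0741). RPLP1 was at 1783 and 1597 FPKM in control and 1907 and 1752 FPKM in knockdown (0.12, limma adjusted p = 0.354), and its groups overlapped, whereas those of RPLP0 and RPLP2 did not.

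RPL5 and RPL11, which bind 5S ribosomal RNA and can hold MDM2 away from p53, were close to their control levels. RPL5 was at 689 and 671 FPKM in control and 688 and 656 FPKM in knockdown, a log2 fold change of -0.017 with a 95% interval of -0.16 to 0.13. RPL11 was at 1230 and 1218 FPKM in control and 1159 and 1166 FPKM in knockdown, a change of -0.074 with an interval of -0.22 to 0.070. Neither was called (limma, adjusted p = 0.866 and 0.415). RPS27A, made as a fusion with ubiquitin, and FAU had log2 fold changes of 0.12 and 0.084 (limma, adjusted p = 0.245 and 0.402).

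Of 19 genes mutated in Diamond-Blackfan anemia, 3 were called (15.8%, against 20.9% of tested genes), RPL15 higher and RPS10 and RPS27 lower. The median of the 19 was 0.045. RPS19, the gene most often mutated in the disease, was at 910 and 847 FPKM in control and 1027 and 952 FPKM in knockdown (log2 fold change 0.17, limma adjusted p = 0.133). RPS19 was called with the other genes scaled to one sum and with length and GC trends removed. RPS14, whose loss marks the 5q deletion of myelodysplasia, was at 1583 and 1501 FPKM in control and 1521 and 1427 FPKM in knockdown (-0.065, limma adjusted p = 0.536). Groups of RPS19 did not overlap, and those of RPS14 did.

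Several members are duplicate copies of another ribosomal protein gene. The 5 that were tested all had negative values, but RPL39L had a positive one without control 1 and without knockdown 2, and of the 5 RPL7L1 was called (20%, against 20.9% of tested genes). RPS27L and RPL26L1 were also called with median-ratio scaling, with the other genes scaled to one sum and with length and GC trends removed, and RPS27L with a filter at 5 FPKM, whereas the most abundant transcript of RPL26L1 had a value of -0.024. RPL22L1 was at 11.5 and 12.5 FPKM in control and 10.6 and 9.85 FPKM in knockdown (log2 fold change -0.21, limma adjusted p = 0.0960). RPS27L was at 19.98 and 18.8 FPKM in control and 16.7 and 16.5 FPKM in knockdown (-0.21, limma adjusted p = 0.0601). RPL26L1 was at 42.8 and 40.3 FPKM in control and 34.7 and 37.3 FPKM in knockdown (-0.20, limma adjusted p = 0.0713). Groups of these 3 genes did not overlap, while those of RPL39L (-0.10, limma adjusted p = 0.607) did.

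The partners of the duplicate copies, including those of the 4 copies not analysed here (RPL3, RPL10 and RPS4X), had values of both signs. RPL39 and RPS27 fell, as described. RPL22 was at 92.4 and 88.1 FPKM in control and 97.6 and 94.6 FPKM in knockdown (log2 fold change 0.090), and RPL26 had a value of 0.12. RPL7 and RPL3 had values of -0.053 and -0.071, RPL10 of -0.098 and RPS4X of 0.15. None of these 6 partners was called (limma, adjusted p from 0.132 for RPS4X to 0.549 for RPL7), although RPS4X was with the other genes scaled to one sum, and RPS4X, RPL26 and RPL3 were with length and GC trends removed. RPL22L1 was thus at 13.3% of the RPL22 level in control and at 10.7% in knockdown, computed from the group means.

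Processed pseudogenes share sequence with these genes, so reads can be divided among copies. RPL21 has 133 annotated pseudogenes and RPL23A has 91, the most of all members, against a median of 12. The pseudogene entry RPL21P28 was at 6.51 and 7.55 FPKM in control and 4.26 and 2.74 FPKM in knockdown (log2 fold change -0.85, limma adjusted p = 0.0140), the same direction as RPL21. Of 12 pseudogene entries tested, 2 were called (16.7%, against 20.9% of tested genes), this one and RPSAP9 (0.40, limma adjusted p = 0.0448), while RPSA was at -0.050, and the entries of RPL23A had values of both signs. The part of shared reads in the fall of RPL21 was not tested, and its value is uncertain for that reason. Across all 83 members the fold change and the number of pseudogenes had a Spearman's rho of 0.070, with all points from the same 4 libraries. For the absolute fold change rho was -0.34 with mean level, -0.13 with transcript length and -0.088 with GC content.

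The table lists several transcripts for 36 of the genes. Of 98 such entries that were tested, 10 differed by more than 1 on the log2 scale, in 7 genes, and 0 of the 47 single entries did. For 6 of the 10 entries the gene total differed by under 0.2. The RPL11 entry NM_001199802 was at 144 and 169 FPKM in control and 3.80 and 75.8 FPKM in knockdown, while NM_000975, with 91.8% of the signal, was at 1086 and 1049 FPKM and at 1156 and 1091 FPKM. The knockdown libraries of the minor entry were far apart from each other.

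In RPS10 the fall came with a change of the minor entry. NM_001203245 was at 162 and 155 FPKM in control and 82.4 and 45.8 FPKM in knockdown, and NM_001014 was at 507 and 427 FPKM and at 415 and 427 FPKM. In RPL15, NM_002948 was at 25.9 and 23.2 FPKM in control and 6.60 and 12.7 FPKM in knockdown, while NM_001253383 was at 145 and 139 FPKM in control and 164 and 220 FPKM in knockdown. None of these entries was called on its own (limma, adjusted p from 0.140 to 0.476). With the most abundant transcript of each gene taken from a fit over all transcript entries, 0 of the 83 genes had an adjusted p under 0.05 in limma. There 0.149% of all genes did, and 16 of the 83 had an unadjusted p under 0.05. Variance and adjustment came from all entries, so these counts do not isolate the choice of transcript. RPL21, which has a single entry, kept its value of -0.65 but had a limma adjusted p of 0.0891.

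The starts of the genes were read from RefSeq (GRCh38.p14), from 250 bases before to 50 after the annotated start, for the 67 members that matched. The other 16 were not matched. A run of 5 or more pyrimidines that began at a C within 5 bases of the start was present in 52 of 67 members (77.6%), against 23.3% of the 8474 tested genes that matched and 21.1% of all 27305 starts. With the C exactly at the annotated start, the shares were 65.7%, 5.74% and 4.04%. The median run was 10 bases in members and 3 bases in tested genes.

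**Figure D5:**
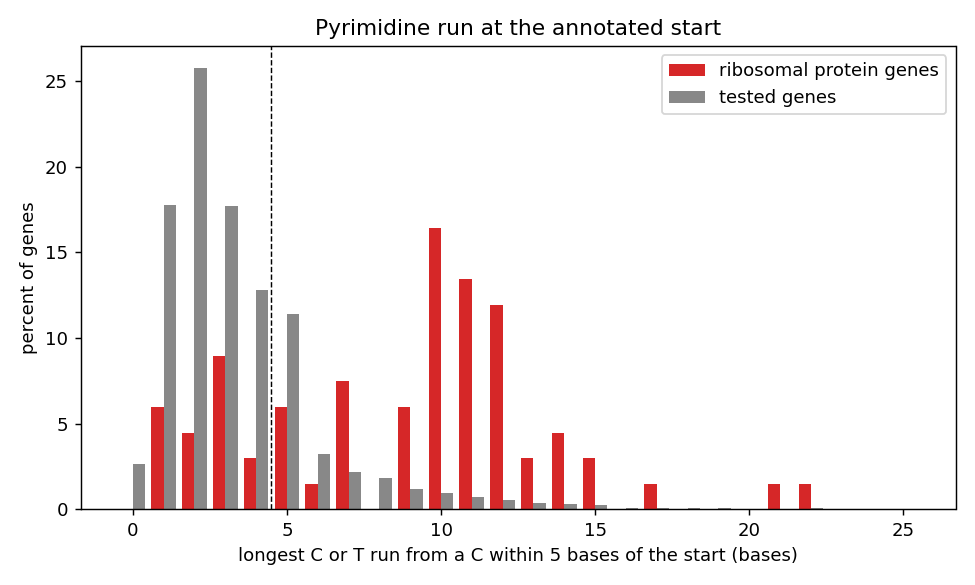
Percent of genes (y) by the length in bases of the longest run of C or T that begins at a C within 5 bases of the annotated start (x), for 67 ribosomal protein genes and 8474 tested genes. The dashed line marks the limit of 5 bases, with 77.6% of ribosomal protein genes and 23.3% of tested genes on its right.

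The windows below run over the 15 bases before the annotated start and the 15 from it on, and are shown for the matched genes with the lowest and highest fold changes among those called. Capitals mark the longest pyrimidine run that begins at a C within 5 bases of the start.
RPL21 (fell, plus strand, chr13:27251543-27251572): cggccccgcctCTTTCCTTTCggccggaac
RPS10 (fell, minus strand, chr6:34426055-34426084): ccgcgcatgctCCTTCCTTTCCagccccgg
RPS13 (fell, minus strand, chr11:17077653-17077682): ttccactctcgCTCTCCTTTCgttgcctga
RPL39 (fell, minus strand, chrX:119791616-119791645): ttcttccgccagCTTCCCTCCTCTTCCTTT
RPL15 (rose, plus strand, chr3:23916530-23916559): ggcgctggggCCTgctggaggagcttcacg
RPS12 (rose, plus strand, chr6:132814554-132814583): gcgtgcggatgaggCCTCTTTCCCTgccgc
RPS21 (rose, plus strand, chr20:62387088-62387117): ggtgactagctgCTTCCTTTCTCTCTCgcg

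Runs stood at genes of both directions. RPL21, RPS10, RPS13 and RPL39 fell and RPS12 and RPS21 rose, and all 6 carry a run of 10 or more bases, which in RPL39 goes on past the window to 22 bases. RPL15 has a run of 3 bases, which begins 5 bases before its annotated start. Of the called genes that matched, 8 of 10 had a run of 5 or more bases, and of those not called 44 of 57 did.

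The sequence TGATGCAA, a composite element to which CEBP and ATF proteins can bind as a pair, was searched on both strands. The search ran from 250 bases before to 50 after the annotated start, beyond the windows above. The element was found in 1 of 67 members (1.49%), against 0.448% of tested genes that matched and 0.923% of all starts. That member is RPS23, shown with the element in capitals.
RPS23 (not called, minus strand, chr5:82278467-82278496): gctcaggaaagTGATGCAAacgcgtcgttt
RPS23 was at 490 and 492 FPKM in control and 510 and 489 FPKM in knockdown (log2 fold change 0.025, limma adjusted p = 0.795), and its groups overlapped. The letters CCAAT, on either strand, were in 31.3% of members, 37.8% of tested genes and 35.7% of all starts. TATAAA, on the strand of the gene, was in 4.48%, 3.50% and 7.71%. These matches describe letters only, and none was read as a binding site.

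A pair of ribosomal proteins whose symbols fall outside the rule were not called. RACK1, a scaffold on the small subunit, was at 1169 and 1075 FPKM in control and 1276 and 1208 FPKM in knockdown (log2 fold change 0.15, limma adjusted p = 0.186). RPL36AL, the copy of RPL36A, was at 151 and 154 FPKM in control and 135 and 132 FPKM in knockdown (-0.19, limma adjusted p = 0.0535). Groups did not overlap in either gene.

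Other messages known for a TOP tract, mostly translation factors, numbered 16 and had a median near 0. Of these 3 were called (18.8%, against 20.9% of tested genes), all lower. They were EIF3A (-0.46) and EIF3H (-0.25), subunits of initiation factor eIF3, and TPT1 (-0.25), with limma adjusted p of 0.00351, 0.0229 and 0.0266. EEF1A1, the elongation factor that delivers transfer RNA, was at 2241 and 2133 FPKM in control and 2446 and 2387 FPKM in knockdown (0.14, limma adjusted p = 0.173).

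Among 10 chaperones and import adaptors of ribosomal proteins, 3 were called (30%, against 20.9% of tested genes), all lower, with a list median of -0.17. BCCIP, related to the yeast chaperone of Rpl23, was at 71.0 and 76.4 FPKM in control and 53.2 and 50.4 FPKM in knockdown (log2 fold change -0.50, limma adjusted p = 0.00428). LTV1, an assembly factor of the small subunit, was at 39.3 and 41.2 FPKM in control and 28.9 and 27.6 FPKM in knockdown (-0.50, limma adjusted p = 0.0037). BTF3, part of the nascent chain complex at the tunnel exit, was at 918 and 882 FPKM in control and 758 and 734 FPKM in knockdown (-0.27, limma adjusted p = 0.0255). Knockdown was below control without overlap in these 3 genes, and 64.8% of tested genes had no overlap in one direction or the other.

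Regulators of TOP messages were read beside them. Of 8 genes, 3 were called (37.5%, against 20.9% of tested genes). The study had already reported EIF4EBP1 among its most downregulated genes in NB4 cells, and lower by qRT-PCR. Its call was therefore known in advance, and the share of this list is no independent result. EIF4EBP1 and EIF4EBP2, which encode repressors of cap-dependent translation, were lower (log2 fold change -1.94 and -0.93, limma adjusted p = 0.000164 and 0.00072). EIF4EBP1 was at 138.9 and 123 FPKM in control and 33.6 and 33.3 FPKM in knockdown. EIF4EBP2 was at 23.1 and 22.6 FPKM in control and 11.4 and 11.6 FPKM in knockdown. CNBP, which binds TOP messages, was higher by 0.22 (limma, adjusted p = 0.0476), and LARP1 had a value of -0.19 (limma, adjusted p = 0.104).

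The proteins of the mitochondrial ribosome are coded by other genes. Of 81 tested, 14 were called (17.3%, against 20.9% of tested genes), 3 higher and 11 lower, with a median log2 fold change of -0.038. The cytosolic ribosome had 12 of 83 and 0.019, and the difference between both families was not tested.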

How the data were processed

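Messenger RNA of 4 libraries was sequenced, 2 control and 2 CEBPG knockdown. Per the labels, total RNA was made into libraries with an Illumina TruSeq kit, and the submitters' processing notes name HISAT2 2.0.5 and hg38. The authors deposited FPKM values, 1 entry per RefSeq transcript (29265 entries). The quantifier and annotation release are not given in the sources used here. Among 1094 genes with a single entry and values under 0.1 FPKM in both controls, the most common ratio of the controls made up 0.457%, so whole reads were not recovered and depth stayed unknown.

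Entries without a symbol (0.250% of FPKM) were left out and the others were summed to 16504 symbols. The 83 ribosomal protein genes had 151 entries with values. Genes that averaged 1 FPKM or more were tested on log2(FPKM + 1), where folds of low genes are understated, with limma 3.58.1 under R 4.3.3 (mean trend, 2-sided, Benjamini-Hochberg over all tested genes, no block). The fit was tested on simulated data. A gene was called at an adjusted p under 0.05. The study tested its own counts, and the deposited unit needed a test on a log scale.

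Gene positions and pseudogenes came from GENCODE 44, starts from RefSeq. Named were the 8 lowest and highest called members, the 5 highest and lowest levels, groups with a shared role, duplicate copies with partners, and called genes of the other lists. RPL23, RPL36A, RPS23, EEF1A1, LARP1, RPL21P28, RPSAP9 and the transcripts of RPL11, RPS10 and RPL15 were named after their values were seen. A few genes that the rule names are not reported here by name, are left out of the plots of single genes and stay in all counts and medians. The members and lists were chosen with earlier results of these data known. Alternatives were a pseudocount of 0.1 FPKM, no filter, a filter at 5 FPKM, scaling by median ratios, one sum over genes other than the members, the replicate number as a block, no trend, each library left out, and the most abundant transcript, and, chosen after seeing the data, removal of length and GC trends and summing of readthrough entries.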

Additional observations from a re-analysis of the deposited data

How the results depend on the processing

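Of the 12 called ribosomal protein genes, all 12 kept their direction in every alternative, and of 517 values of named genes in alternatives 13 took the other sign, in 8 genes that were not called. The count of genes called higher (3) was 5 with a filter at 5 FPKM and with median-ratio scaling, 10 with genes other than the members scaled to one sum, 13 with length and GC trends removed, and 0 with no filter and with the most abundant transcript (limma, 17 and 16 genes of either direction at an unadjusted p under 0.05). The count called lower (9) was 3, 16, 17 and 0 with no filter, one sum, trends removed and the most abundant transcript. Called large subunit genes (6) numbered 3, 14, 17 and 0 in the same order, called small subunit genes (6) 0, 12, 13 and 0, and called genes of the other lists together (23) 8, 39, 45 and 1, with 11 for moderation without a trend. The percent called over the whole table was 5.34 with no filter, 24.5 with one sum, 31.6 with trends removed and 0.149 with the most abundant transcript. That last fit and its adjustment ran over all transcript entries, so its counts do not isolate the choice of transcript.

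Without one library in turn, genes called higher ranged from 0 to 4, lower from 1 to 8, large subunit from 1 to 5, small subunit from 0 to 7 and other lists from 8 to 19. The lowest counts came without knockdown 1 and without knockdown 2, where only RPL21 stayed called among the 83 (limma, 9 and 11 at an unadjusted p under 0.05) and 7.52% and 7.64% of all genes were. The controls alone gave the spread there, so these counts say little about stability. The median of the 83 ranged from -0.023 without control 2 to 0.047 without knockdown 2, so its sign rests on single libraries, and was -0.0040 with one sum and -0.012 with the most abundant transcript. CEBPG ranged from -1.23 to -1.05, and was -1.15 for its most abundant transcript (limma, adjusted p = 0.0587). The group difference in the share of FPKM ranged from -0.24 to 0.17 percentage points and that of the subunit ratio from -0.018 to -0.0043.

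Same-numbered libraries correlated at 0.101 in their deviations over all tested genes and at -0.144 over the 83, and the labels tie nothing to the number. A correlation across genes does not see an offset that most genes share. Library 1 was above library 2 for 68 of the 83 genes in control and for 78 in knockdown, and a block removes such an offset. With the replicate number as a block, 25 genes were called higher and 17 lower, 25 of the large and 17 of the small subunit, and 45 of the other lists, so that 50.6% of the 83, the 3 stalk genes, RPS19, RPS4X, RPL26 and RPL36A among them, and 31.4% of all tested genes were called. The cause of these shifts was not tested. Depth was unknown, so no limit from counting could be given.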
